A study of Mus musculus with 4 samples.

Results

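The interleukins and the tumor necrosis factor (TNF) superfamily, with their receptors and soluble antagonists, were described at the site of a contusion spinal cord injury (SCI) in mice that carry human ApoE3 or ApoE4. Members were taken by gene symbol alone: a symbol that starts with IL and a digit, with TNFSF or TNFRSF and a digit, or that is TNF. The rule found 59 symbols. Il4i1 and Il4i1b are overlapping gene models with identical values and were counted once, which left 58 members of the 14718 genes in the table. They comprised 24 interleukin receptor chains, 11 interleukin ligands and soluble antagonists, 15 TNF receptors, 7 TNF superfamily ligands, and Il4i1, a secreted enzyme that degrades amino acids and that carries an interleukin name only.

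Interleukins and TNF family ligands are the messengers by which microglia, infiltrating leukocytes, astrocytes and vessels signal to each other in injured cord. Many interleukin ligands bind pairs of receptor chains that pass the signal through Janus kinases and STAT factors, and those of the IL-1 family signal through Myd88 and IRAK kinases. TNF receptors recruit TRAF adaptors or death domain proteins, and both the IL-1 and the TNF arms reach the transcription factor NF-kappaB. Soluble antagonists such as Il1rn, the IL-1 receptor antagonist, and Il18bp, the IL-18 binding protein, hold ligands or receptors back.

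The 4 groups were male targeted replacement mice, in which the human ApoE3 or the human ApoE4 coding region stands in place of the mouse gene, and both genotypes received the same injury of 50 kdyne under isoflurane, at thoracic vertebra 9. The animals were 3 to 5 months old at injury. RNA came from lesion segments of about 4 mm taken at 7 or 21 days post injury (dpi), from 3 mice per genotype and time by the study's methods. Uninjured and sham cords were not analysed here, so no level below is a response to injury.

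Each gene had 1 value per group in FPKM, fragments normalised to transcript length and to the reads of the sample, with no value per mouse. No difference therefore has a replicate check, and nothing below was tested. Genes are called higher or lower when the log2 ratio of scaled FPKM + 1 reached a fold of 1.3, the fold used in the study. FPKM of each group was first divided by a factor that sets the median gene equal across groups, 0.898 for ApoE3 and 0.890 for ApoE4 at 7 dpi, 0.960 for ApoE3 and 1.31 for ApoE4 at 21 dpi. The ApoE4 sample at 21 dpi stood above the others across the table: without scaling the median gene had a log2 ratio of ApoE3 to ApoE4 of -0.42 at 21 dpi and 0.0018 at 7 dpi, and of 21 to 7 dpi of 0.53 in ApoE4 and 0.089 in ApoE3. FPKM values are printed as deposited, and log2 ratios after scaling unless stated.

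The table's comparison names place ApoE3 first, and its sample-number columns place ApoE4 first. The names were followed, as in the rule for the members. Under the other reading every genotype direction below turns round and the ApoE3 and ApoE4 time changes trade places, and a change with time that is given for both genotypes holds under either reading.

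At 7 dpi 57 of the 58 members had a row and at 21 dpi 46 had one, with 45 listed at both times. The 12 listed at 7 dpi only were Il7r, Il10ra, Il12rb2, Il17rd, Il18, Il1rapl1, Il27ra, Tnfrsf10b, Tnfrsf13c, Tnfrsf26, Tnfsf12 and Tnfsf8, which is 21.1% of the members with a row at 7 dpi, and over all genes the same share was 23.0%. Il1f9, the older symbol of the gene for IL-36 gamma, was listed at 21 dpi only. A gene without a row has no value and is not read as absent.

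Most members were transcripts of low or moderate level. The median member stood at 13.8 (ApoE3) and 15.7 FPKM (ApoE4) at 7 dpi, against 33.0 in both for the median gene, and at 7.36 and 11.1 at 21 dpi, against 26.9 and 36.8. Levels ran from 0.440 FPKM for Il1f9 in ApoE3 at 21 dpi to 248 for Il34 in ApoE4 at 21 dpi. Il34, a ligand of the microglial receptor Csf1r, was the most abundant member by mean level, at 112 (ApoE3) and 136 FPKM (ApoE4) at 7 dpi, and 212 and 248 at 21 dpi. Il3ra, the ligand-binding chain of the IL-3 receptor, followed with 183 (ApoE3) and 172 FPKM (ApoE4) at 7 dpi, and 72.01 and 122 at 21 dpi. Il15ra, which presents IL-15 to neighbouring cells, had 109 (ApoE3) and 98.7 FPKM (ApoE4) at 7 dpi, and 129 and 164 at 21 dpi. Il11ra1, the IL-11 receptor, had 71.4 (ApoE3) and 75.4 FPKM (ApoE4) at 7 dpi, and 131 and 174 at 21 dpi, and a close copy, Il11ra2, stood at 4.93 to 8.22 FPKM; reads of these near-identical genes may be shared, so the level of each is uncertain. Tnfrsf12a, the receptor for the ligand TWEAK, was the most abundant TNF receptor, at 87.97 (ApoE3) and 88.5 FPKM (ApoE4) at 7 dpi, and 75.7 and 115 at 21 dpi. Il1rap, the chain that IL-1, IL-33 and IL-36 receptors have in common, had 64.1 (ApoE3) and 63.5 FPKM (ApoE4) at 7 dpi, and 41.1 and 62.7 at 21 dpi. Il18 was listed at 7 dpi only, at 61.6 (ApoE3) and 75.1 FPKM (ApoE4), below its antagonist Il18bp at 112 and 140.1. Il10ra, the ligand-binding chain of the IL-10 receptor, was listed at 7 dpi only, at 49.6 (ApoE3) and 49.9 FPKM (ApoE4). The best-known inflammatory ligands were low beside these: Il1b had 1.86 (ApoE3) and 2.15 FPKM (ApoE4) at 7 dpi, and 1.08 and 2.61 at 21 dpi, and Tnf had 3.37 (ApoE3) and 3.51 FPKM (ApoE4) at 7 dpi, and 1.36 and 3.09 at 21 dpi.

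**Figure D1:**
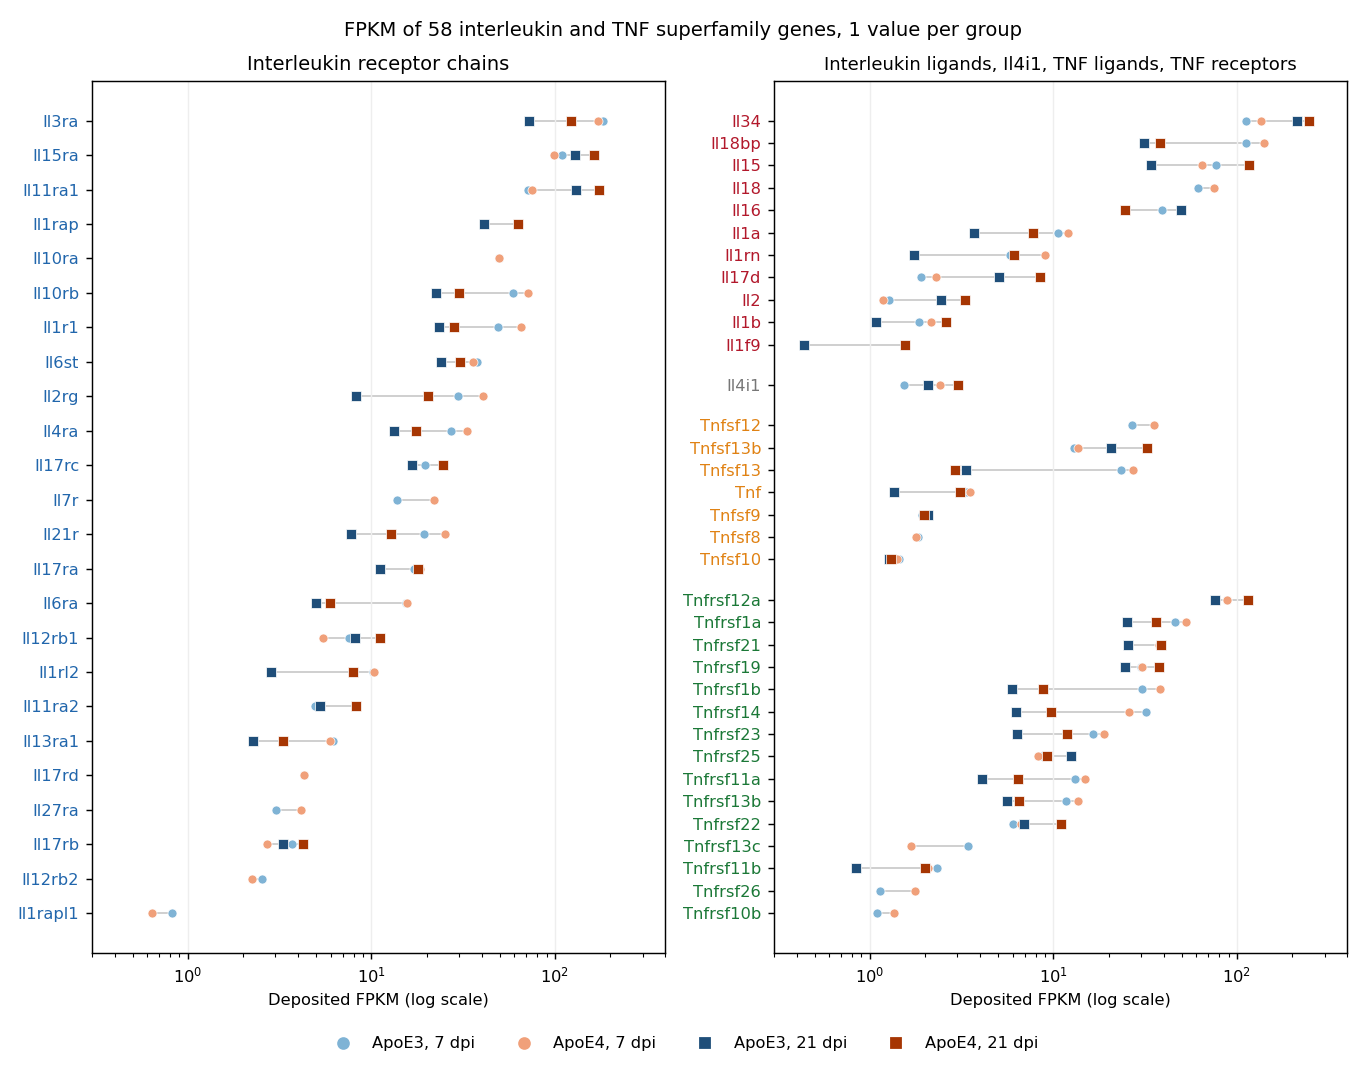
Deposited FPKM of the 58 members, 1 point per group (circles 7 dpi, squares 21 dpi; blue ApoE3, orange ApoE4) on a log axis, with interleukin receptor chains on the left and ligands, Il4i1, TNF ligands and TNF receptors on the right. Members span 0.440 to 248 FPKM, and for genes such as Tnfsf13, Tnfrsf1b and Il18bp both squares lie left of both circles.

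From 7 to 21 dpi the members moved down in both genotypes. Of the 45 listed at both times, 28 were lower at 21 dpi in ApoE3 and 27 in ApoE4, against 27.7% and 28% of all 10879 genes, and 6 and 5 were higher, against 26.7% and 26.1%. The median member had a log2 ratio of -0.72 in ApoE3 and -0.56 in ApoE4, with the median gene at 0.0024 and 0.0040, and without scaling the median member in ApoE4 was at -0.063. The 2 genotypes share no sample in this comparison: 25 of the 45 members were lower in both, against 21.5% of all genes, and 4 were higher in both, against 19.6%. Without scaling, the ApoE4 split became 19 lower and 12 higher, against 10.9% and 59% of all genes, and 18 members were lower and 5 higher in both genotypes, against 9.84% and 30%. The 7 of the 25 that then fell short of the fold did so in ApoE4, with unscaled ratios of 0.03 for Tnfrsf21, -0.02 for Il1rap, -0.02 for Il17ra, -0.05 for Tnfrsf11b, -0.14 for Tnf, -0.24 for Il6st and -0.34 for Il1rl2. The tables of the 2 times may have been normalised in separate runs by the authors, so each level set across times carries that limit.

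TNF receptors were among the members with the largest ratios. Of 12 listed at both times, 8 were lower at 21 dpi in both genotypes and 0 were higher in both, against 21.5% and 19.6% of all genes, with medians of -0.93 in ApoE3 and -0.80 in ApoE4, the latter -0.29 without scaling. Tnfrsf1b, the TNF receptor of leukocytes and microglia known as TNFR2, had 30.4 (ApoE3) and 38.2 FPKM (ApoE4) at 7 dpi, and 5.94 and 8.76 at 21 dpi, log2 ratios of -2.28 in ApoE3 and -2.51 in ApoE4. Tnfrsf14, the herpesvirus entry mediator that binds LIGHT, had 31.9 (ApoE3) and 25.8 FPKM (ApoE4) at 7 dpi, and 6.25 and 9.72 at 21 dpi, log2 ratios of -2.28 in ApoE3 and -1.83 in ApoE4. In both genes the 21 dpi values of the 2 genotypes lay below both 7 dpi values. Tnfrsf11a, the receptor RANK, had 13.2 (ApoE3) and 14.8 FPKM (ApoE4) at 7 dpi, and 4.08 and 6.38 at 21 dpi, log2 ratios of -1.58 in ApoE3 and -1.59 in ApoE4. Tnfrsf1a, the broadly expressed death domain receptor for TNF, changed less: FPKM was 45.9 (ApoE3) and 53.1 (ApoE4) at 7 dpi, and 25.2 and 36.3 at 21 dpi, log2 ratios of -0.93 in ApoE3 and -1.08 in ApoE4. The level of Tnfrsf1a was 1.51 and 1.39 times that of Tnfrsf1b at 7 dpi and 4.25 and 4.14 times at 21 dpi, in ApoE3 and ApoE4. Tnfrsf12a did not reach the fold in either genotype, with log2 ratios of -0.31 in ApoE3 and -0.18 in ApoE4, and without scaling the value in ApoE4 was 0.37.

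The promoters of Tnfrsf1b and Tnfrsf14, the TNF receptors with the largest ratios in both genotypes, are shown from 250 bases before to 50 after the RefSeq start (GRCm38.p6, chr4:145246821-145247120 on the minus strand, and chr4:154928028-154928327 on the minus strand), 5' to 3' along the gene. Capitals mark matches on either strand to a gamma-activated site (TTCNNNGAA) or an interferon-stimulated element (GAAANNGAA).
Tnfrsf1b: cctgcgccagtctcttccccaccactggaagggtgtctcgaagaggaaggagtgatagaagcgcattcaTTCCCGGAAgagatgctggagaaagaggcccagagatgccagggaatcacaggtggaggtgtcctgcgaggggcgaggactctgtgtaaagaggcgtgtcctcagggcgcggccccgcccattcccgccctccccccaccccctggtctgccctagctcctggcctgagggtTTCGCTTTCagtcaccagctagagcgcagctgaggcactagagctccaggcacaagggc
Tnfrsf14: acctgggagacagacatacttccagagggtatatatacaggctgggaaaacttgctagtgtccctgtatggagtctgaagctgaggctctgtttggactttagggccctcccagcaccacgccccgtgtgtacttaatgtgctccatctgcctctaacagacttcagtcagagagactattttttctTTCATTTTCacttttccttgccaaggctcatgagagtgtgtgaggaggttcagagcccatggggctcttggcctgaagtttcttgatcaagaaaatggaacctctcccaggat
The Tnfrsf1b window held a gamma-activated match that begins at -181 and an interferon-stimulated match at -9 relative to the start, and the Tnfrsf14 window an interferon-stimulated match at -63. Over the 32851 promoters of the table, 8.30% held the gamma-activated letters and 8.56% the interferon-stimulated letters. Of 55 promoters of 45 members that the table holds, 8 and 7 did, 14.5% and 12.7%. A match describes these letters and is no evidence of binding.

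Of the TNF superfamily ligands, 5 were listed at both times, with 2 lower and 1 higher in both genotypes, against 21.5% and 19.6%, and medians of -0.16 in ApoE3 and -0.41 in ApoE4, the latter -0.06 without scaling. Tnfsf13, known as APRIL, a ligand for B and plasma cells that myeloid cells make, had the largest change of all members, 23.4 (ApoE3) and 27.3 FPKM (ApoE4) at 7 dpi, and 3.35 and 2.93 at 21 dpi, log2 ratios of -2.59 in ApoE3 and -3.29 in ApoE4. Tnfsf12, which encodes TWEAK and lies next to Tnfsf13, was listed at 7 dpi only, and a readthrough gene of the pair, Tnfsfm13, has a symbol outside the rule. Reads of the 3 overlapping models may be shared, and the split between them is uncertain. Tnf had log2 ratios of -0.97 in ApoE3 and -0.56 in ApoE4, and without scaling the value in ApoE4 was -0.14, short of the fold. Tnfsf13b, known as BAFF, a survival factor for B cells, went the other way: FPKM was 12.98 (ApoE3) and 13.6 (ApoE4) at 7 dpi, and 20.6 and 32.5 at 21 dpi, log2 ratios of 0.54 in ApoE3 and 0.66 in ApoE4.

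Interleukin receptor chains had medians of -0.90 in ApoE3 and -0.81 in ApoE4, the latter -0.29 without scaling, and 12 of 18 were lower in both genotypes and 1 higher, against the same 21.5% and 19.6%. Il2rg, the common gamma chain that receptors for IL-2, IL-4, IL-7, IL-15 and IL-21 need, had 29.6 (ApoE3) and 40.8 FPKM (ApoE4) at 7 dpi, and 8.23 and 20.5 at 21 dpi, log2 ratios of -1.83 in ApoE3 and -1.49 in ApoE4. Il6ra, the IL-6 binding chain, had 15.5 (ApoE3) and 15.7 FPKM (ApoE4) at 7 dpi, and 4.97 and 5.94 at 21 dpi, log2 ratios of -1.56 in ApoE3 and -1.75 in ApoE4, and its signaling partner Il6st had smaller ratios of -0.72 in ApoE3 and -0.78 in ApoE4. Il10rb, the second chain of receptors for IL-10 and related ligands, had 59.2 (ApoE3) and 71.8 FPKM (ApoE4) at 7 dpi, and 22.6 and 29.98 at 21 dpi, log2 ratios of -1.44 in ApoE3 and -1.77 in ApoE4. Il1r1, the signaling IL-1 receptor, had 49.1 (ApoE3) and 65.4 FPKM (ApoE4) at 7 dpi, and 23.4 and 28.2 at 21 dpi, log2 ratios of -1.14 in ApoE3 and -1.73 in ApoE4. Il3ra had log2 ratios of -1.43 in ApoE3 and -1.05 in ApoE4 and Il1rap of -0.72 in ApoE3 and -0.57 in ApoE4. Il15ra, with log2 ratios of 0.14 in ApoE3 and 0.17 in ApoE4, did not reach the fold in either genotype, and without scaling had 0.72 in ApoE4. Il1rl2, the receptor for IL-36 ligands, had 10.2 (ApoE3) and 10.4 FPKM (ApoE4) at 7 dpi, and 2.83 and 7.99 at 21 dpi, log2 ratios of -1.64 in ApoE3 and -0.83 in ApoE4. The 8 further members lower in both genotypes, Il4ra, Il13ra1, Il17ra, Il21r, Tnfrsf11b, Tnfrsf13b, Tnfrsf21 and Tnfrsf23, had log2 ratios from -1.35 to -0.62 in ApoE3 and from -1.45 to -0.41 in ApoE4. Another 8 members, among them Il15ra, Il17rb, Il17rc and Tnfrsf12a, did not reach the fold in either genotype; without scaling Il17rb and Il17rc had 0.50 and 0.54 in ApoE4.

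Among interleukin ligands and antagonists, 3 of 9 were lower and 2 higher in both genotypes, against 21.5% and 19.6%. Il18bp had 112 (ApoE3) and 140.1 FPKM (ApoE4) at 7 dpi, and 31.00 and 38.3 at 21 dpi, log2 ratios of -1.92 in ApoE3 and -2.39 in ApoE4. Il1a had 10.6 (ApoE3) and 12.01 FPKM (ApoE4) at 7 dpi, and 3.70 and 7.77 at 21 dpi, log2 ratios of -1.40 in ApoE3 and -1.06 in ApoE4. Il1rn had 5.79 (ApoE3) and 9.03 FPKM (ApoE4) at 7 dpi, and 1.74 and 6.09 at 21 dpi, log2 ratios of -1.40 in ApoE3 and -0.98 in ApoE4. The antagonist Il1rn was at 3.11 and 4.19 times the FPKM of Il1b at 7 dpi and at 1.61 and 2.34 times at 21 dpi, in ApoE3 and ApoE4. Il1b itself was lower at 21 dpi in ApoE3, with a log2 ratio of -0.53. In ApoE4 it was -0.19, and 0.19 without scaling. The role median in ApoE4 was -0.19, and 0.19 without scaling.

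The 4 members higher at 21 dpi in both genotypes, named after their values were seen, were Il11ra1, Il17d, Il2 and Tnfsf13b. Il11ra1 had log2 ratios of 0.77 in ApoE3 and 0.64 in ApoE4. Il17d, an IL-17 family ligand, had 1.91 (ApoE3) and 2.30 FPKM (ApoE4) at 7 dpi, and 5.03 and 8.47 at 21 dpi, log2 ratios of 0.997 in ApoE3 and 1.06 in ApoE4. Il2, the T cell growth factor, was at low level throughout, 1.28 (ApoE3) and 1.18 FPKM (ApoE4) at 7 dpi, and 2.46 and 3.28 at 21 dpi, log2 ratios of 0.55 in ApoE3 and 0.59 in ApoE4. Il34 was higher in ApoE3, with a log2 ratio of 0.81, and had 0.31 in ApoE4, short of the fold, against 0.87 without scaling. Its receptor Csf1r went down meanwhile, 197 (ApoE3) and 183 FPKM (ApoE4) at 7 dpi, and 73.4 and 117 at 21 dpi, so that Il34 was at 0.571 and 0.743 times the level of Csf1r at 7 dpi and at 2.89 and 2.13 times at 21 dpi.

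**Figure D2:**
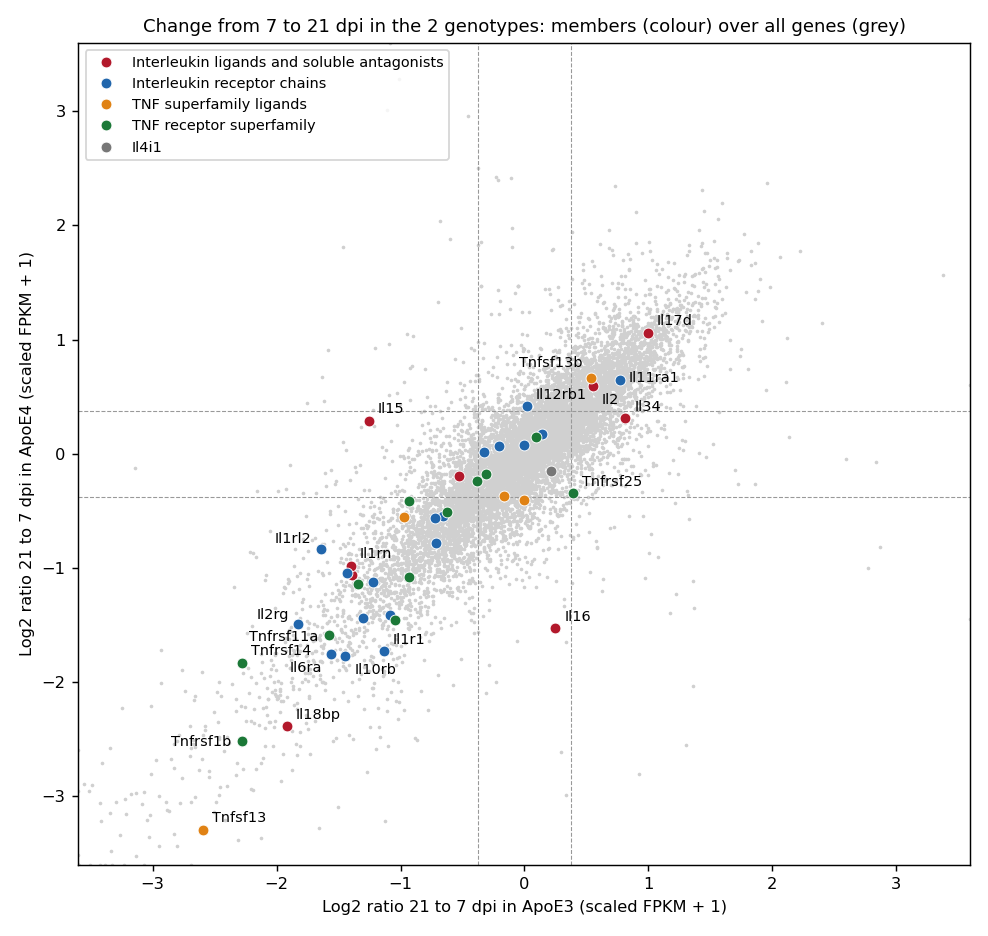
Log2 ratio of scaled FPKM + 1, 21 to 7 dpi, in ApoE3 (x axis) and ApoE4 (y axis) for the 45 members listed at both times, coloured by role, over all 10879 genes in grey; dashed lines mark a fold of 1.3, and grey points beyond the axes are drawn at the edge. The lower left corner holds 25 members, with Tnfsf13 farthest out, and Il15 and Il16 lie away from the diagonal.

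Macrophage markers moved with this decline. Of the 7 genes of the list, 3 had a row at both times, and their summed FPKM was 5586 in ApoE3 and 7405 in ApoE4 at 7 dpi, and 266 and 519 at 21 dpi. Lyz2, the most abundant, had 4522 (ApoE3) and 6076 FPKM (ApoE4) at 7 dpi, and 212 and 426 at 21 dpi, log2 ratios of -4.51 in ApoE3 and -4.39 in ApoE4. Of the 7 microglia markers, 5 had a row at both times, with sums of 518 and 591 at 7 dpi and 276 and 498 at 21 dpi, led by Fcrls and then by Siglech. After scaling 3 of the 5 were lower in both genotypes, against 21.5% of all genes. Siglech went the other way, with log2 ratios with time of 0.04 in ApoE3 and 0.63 in ApoE4, the latter past the fold. Fibroblast markers, 5 of 5, summed to 486 and 608 at 7 dpi and to 116 and 77.3 at 21 dpi. Of the 5, 4 were lower in both genotypes, against the same 21.5% of all genes. Col1a1 led at 7 dpi, and at 21 dpi Dcn, with 0.34 with time in ApoE3, led in ApoE3 and Pdgfra in ApoE4. Neuron markers, 4 of 5 and led by Snap25, summed to 4365 and 3368, then 6901 and 10337. No listed gene of these 4 lists was at 0. The part of these cells in the members' change was not tested, and in whole tissue fewer cells of a type and less RNA per cell cannot be told apart.

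Lymphocyte markers were sparse. Of 7 T cell markers only Lck, Cd28 and Cd3g had a row at either time, with Lck, the most abundant, at 11.5 (ApoE3) and 4.79 FPKM (ApoE4) at 7 dpi, and 11.05 and 8.06 at 21 dpi. Of 5 B cell markers only Cd79b did, at 2.46 (ApoE3) and 3.28 FPKM (ApoE4) at 7 dpi, and 1.19 and 3.03 at 21 dpi, and of 5 natural killer cell markers only Nkg7, at 21 dpi, with 1.23 (ApoE3) and 2.62 FPKM (ApoE4). Neutrophil markers with a row at both times, 3 of 7, summed to 505 and 600.4 FPKM at 7 dpi and 291 and 436 at 21 dpi. Nearly all of each sum was Csf3r, with 485 (ApoE3) and 589 FPKM (ApoE4) at 7 dpi, and 279 and 405 at 21 dpi. The less abundant S100a8 and S100a9 had log2 ratios with time of -1.29 and -0.51 in ApoE3 and of -0.32 and 1.103 in ApoE4. Dendritic cell markers, 3 of 5, summed to 62.3 and 73.6, then 59.3 and 84.1. After scaling their median log2 ratio with time was -0.22 in ApoE3 and -0.19 in ApoE4, the latter 0.35 without scaling. Mast cell markers were represented by Kit alone, with 16.6 (ApoE3) and 13.1 FPKM (ApoE4) at 7 dpi, and 28.5 and 29.8 at 21 dpi. Sums of deposited FPKM for astrocytes, 5 of 5 and led by Gfap, were 15339 and 15042 at 7 dpi and 9216 and 17063 at 21 dpi. After scaling all 5 had log2 ratios with time below 0 in both genotypes. Their medians were -0.69 in ApoE3 and -0.25 in ApoE4, the latter 0.31 without scaling. For oligodendrocytes, 3 of 5 and led by Mbp, the sums were 126687 and 133853, then 209780.0 and 291010.0. For endothelium, 4 of 5 and led by Flt1, the sums were 179 and 175, then 199 and 253. The scaled medians with time, in ApoE3 and ApoE4, were 0.38 and 0.42 for oligodendrocyte markers and 0.07 and 0.04 for endothelial markers. Neuron, astrocyte and oligodendrocyte markers thus had high sums in all 4 groups of the labelled cord tissue.

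**Figure D3:**
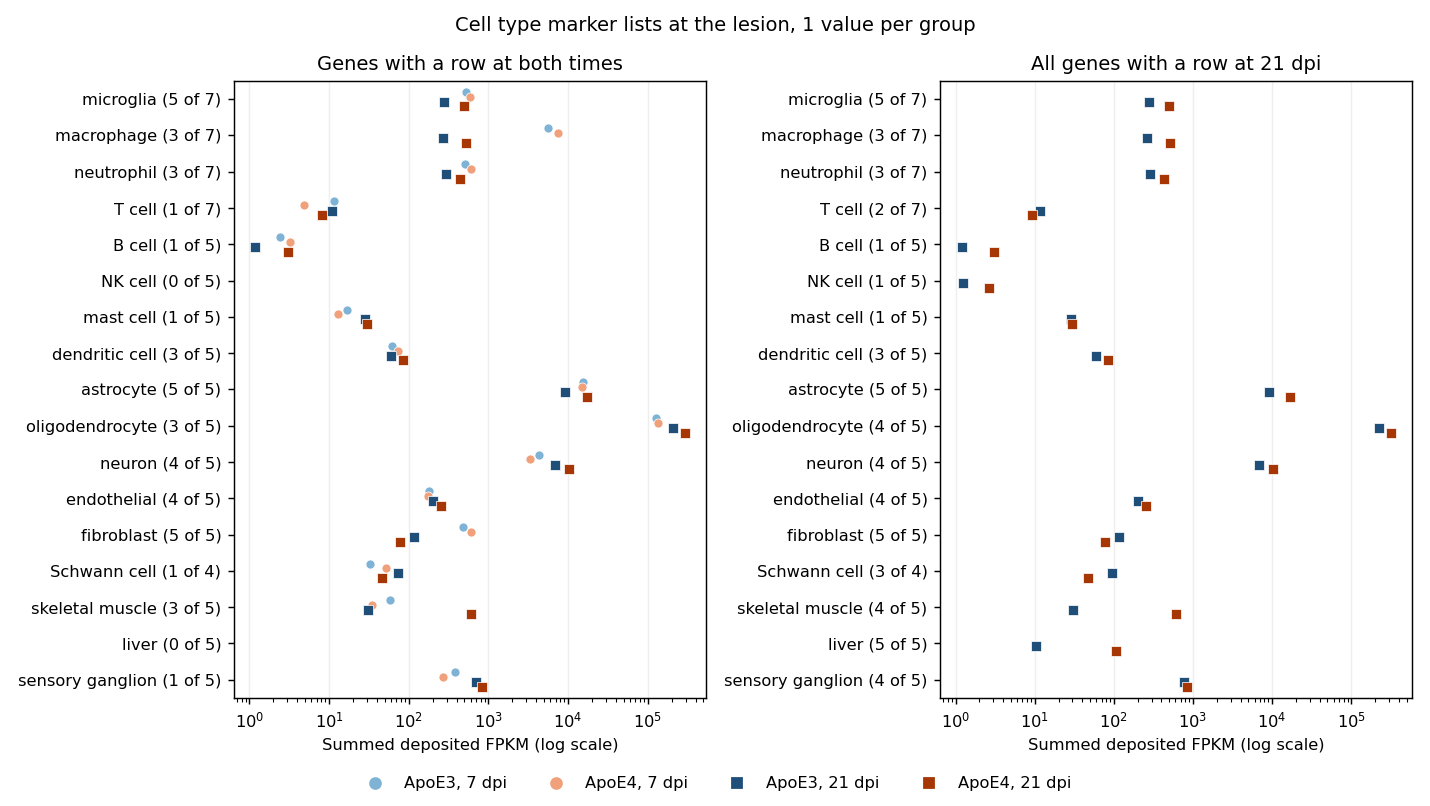
Summed deposited FPKM of each marker list on a log axis, 1 point per group, for genes with a row at both times (left) and for all genes with a row at 21 dpi (right), with the number of genes summed beside each name. Macrophage sums are 5586 and 7405 at 7 dpi and 266 and 519 at 21 dpi, and at 21 dpi Schwann cell markers are higher in ApoE3 and muscle and liver markers in ApoE4.

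At 7 dpi the genotypes differed in few members. Of 57, 2 were higher in ApoE3 and 7 in ApoE4, against 3.58% and 5.26% of 14125 genes. The median member had a log2 ratio of ApoE3 to ApoE4 of -0.09, and the median gene -0.01. Role medians were -0.24 for interleukin ligands and antagonists, -0.02 for interleukin receptor chains, -0.08 for TNF superfamily ligands and -0.14 for TNF receptors. Il7r, the IL-7 receptor of lymphocytes, had 13.8 (ApoE3) and 21.9 FPKM (ApoE4), a log2 ratio of -0.65. Il1rn had a ratio of -0.58, Il2rg of -0.46 and Il1r1 of -0.42, all toward ApoE4. Il7r and Il2rg together form the IL-7 receptor, and both its chains were higher in ApoE4. Il4i1 had 1.54 (ApoE3) and 2.40 FPKM (ApoE4), a ratio of -0.45. Tnfsf12 had 26.9 (ApoE3) and 35.2 FPKM (ApoE4), a ratio of -0.39, just past the fold. Tnfrsf26, a receptor in a cluster with the close copies Tnfrsf22 and Tnfrsf23, whose reads may be shared, had 1.13 (ApoE3) and 1.76 FPKM (ApoE4), a ratio of -0.39, which fell short of the fold at -0.37 without scaling and at -0.37 with the median ratio subtracted in place of scaling. Higher in ApoE3 were Tnfrsf13c, the BAFF receptor of B cells, with 3.41 (ApoE3) and 1.68 FPKM (ApoE4) and a ratio of 0.73, and Il12rb1, a chain of the receptors for IL-12 and IL-23, with 7.52 (ApoE3) and 5.44 FPKM (ApoE4) and a ratio of 0.40. Beside these, 4 of 7 macrophage markers were higher in ApoE4, the list summing to 6927 FPKM in ApoE3 and 9155 in ApoE4 with no listed gene at 0. Of the 2 T cell markers with a row, Lck was higher in ApoE3 with a ratio of 1.11, and Cd28 had -0.15. Of 4 neutrophil markers, S100a8 and S100a9 were higher in ApoE3, with 0.53 and 0.71, Mmp8 was higher in ApoE4, with -0.54, and Csf3r, the most abundant, had -0.29. All 5 neuron markers had ratios above 0, from 0.23 to 0.39, Snap25 past the fold, and summed to 5203 and 4066 FPKM. Skeletal muscle markers were higher in ApoE3 in 2 of 3, with sums of 58.6 and 34.2 FPKM, and so was Calca, 1 of 2 sensory ganglion markers with a row, at 0.47. Egr2, the only 1 of the 4 Schwann cell markers with a row at 7 dpi, was higher in ApoE4, at -0.64. So were 2 of 5 fibroblast markers, 1 of 6 microglia markers and, of 3 dendritic cell markers, Itgax, at -0.72. The part of these cells was not tested.

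The promoter of Il7r (GRCm38.p6, chr15:9529827-9530126 on the minus strand), the member with the largest difference toward ApoE4 at 7 dpi, held a match to the gamma-activated letters that begins at -142, in capitals here.
Il7r: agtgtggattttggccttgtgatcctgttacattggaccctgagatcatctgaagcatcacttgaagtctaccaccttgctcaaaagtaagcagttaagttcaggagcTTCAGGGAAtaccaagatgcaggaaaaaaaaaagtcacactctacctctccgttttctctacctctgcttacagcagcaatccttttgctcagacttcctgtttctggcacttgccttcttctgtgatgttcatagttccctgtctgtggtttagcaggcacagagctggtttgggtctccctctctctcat

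At 21 dpi 3 members of 46 were higher in ApoE3 and 10 in ApoE4, against 6.76% and 8.66% of 11472 genes. The median member had a log2 ratio of -0.13, and the median gene -0.00084. Without scaling 2 were higher in ApoE3 and 32 in ApoE4, against 2.01% and 58.9% of all genes. The median member then had a log2 ratio of -0.54 and the median gene -0.42. By role the 10 were 5 of 10 interleukin ligands and antagonists, 2 of 18 interleukin receptor chains, 2 of 12 TNF receptors and Tnf, 1 of 5 TNF superfamily ligands. Role medians were -0.37 for interleukin ligands and antagonists, -0.03 for interleukin receptor chains, -0.15 for TNF receptors and 0.22 for TNF superfamily ligands, and without scaling -0.72, -0.41, -0.57 and -0.02 in that order. With the median ratio subtracted in place of scaling 5 members were higher in ApoE3 and 7 in ApoE4, against 7.46% and 8.06% of all genes.

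Among the 10 members toward ApoE4, Il1rn had 1.74 (ApoE3) and 6.09 FPKM (ApoE4), a log2 ratio of -1.01. Il1a had 3.70 (ApoE3) and 7.77 FPKM (ApoE4), a ratio of -0.51, and Il1b 1.08 (ApoE3) and 2.61 FPKM (ApoE4), a ratio of -0.49. Il1f9 had 0.440 (ApoE3) and 1.56 FPKM (ApoE4), a ratio of -0.59, and the receptor that IL-36 ligands bind, Il1rl2, had 2.83 (ApoE3) and 7.99 FPKM (ApoE4), a ratio of -0.85. Il1r1 and Il1rap did not reach the fold, with ratios of 0.17 and -0.16, and without scaling Il1r1 had -0.26 and Il1rap -0.60. Tnf had 1.36 (ApoE3) and 3.09 FPKM (ApoE4), a ratio of -0.47. Il2rg had 8.23 (ApoE3) and 20.5 FPKM (ApoE4), a ratio of -0.80. Tnfrsf11b, the decoy receptor osteoprotegerin, and Tnfrsf23 had ratios of -0.42 and -0.40. With the median ratio subtracted in place of scaling, 3 of the 10 fell short of the fold, Il1b at -0.37, Tnf at -0.37 and Tnfrsf11b at -0.28. Apart from Il15, Il2rg and Tnfrsf23 the 10 lay below 10 FPKM in both groups, where the 1 added to FPKM draws ratios toward 0.

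**Figure D4:**
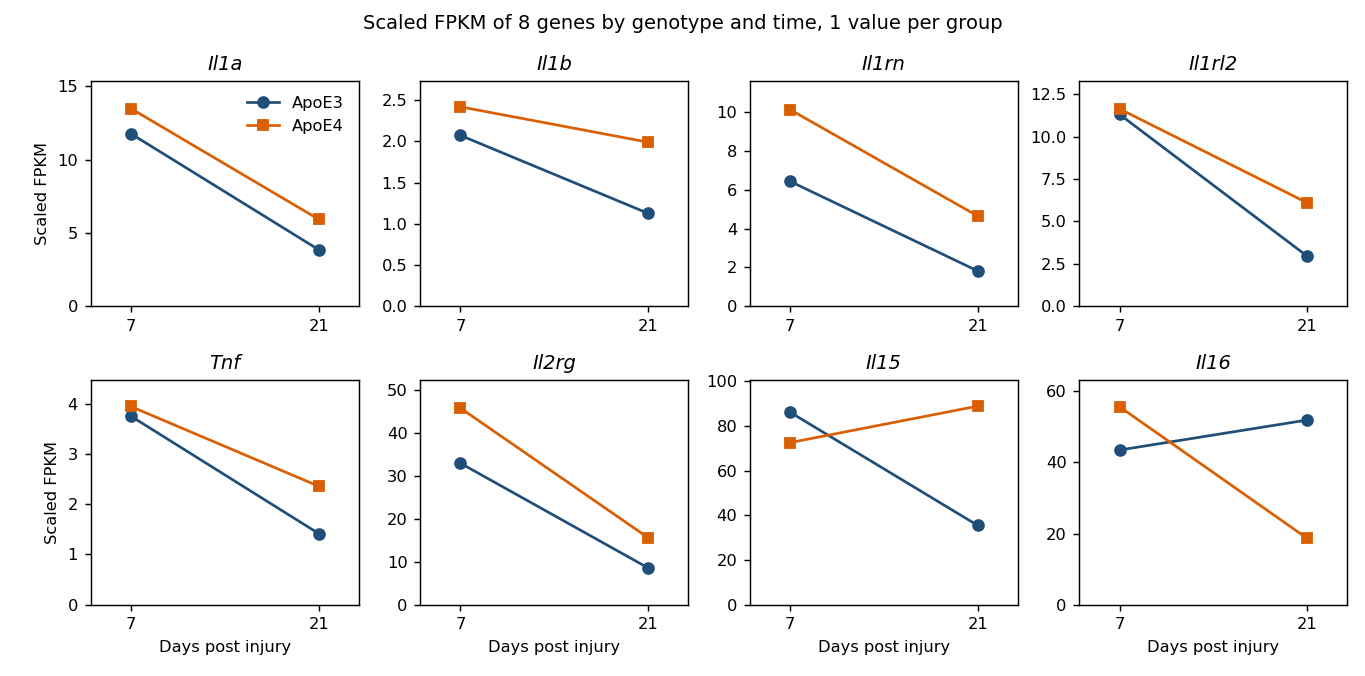
Scaled FPKM at 7 and 21 dpi in ApoE3 (blue circles) and ApoE4 (orange squares) for 8 members, 1 value per group, each panel with its own axis from 0. Il1a, Il1rn, Il1rl2, Tnf and Il2rg are lower at 21 than at 7 dpi in both genotypes and Il1b in ApoE3, all 6 with ApoE4 above ApoE3 at 21 dpi, while the lines of Il15 and Il16 cross; in ApoE4 Il1b falls short of the fold, and without scaling so do Tnf and Il1rl2, and Il1b stands higher at 21 dpi.

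After scaling and with a pseudocount of 1, Il15 and Il16 had the largest genotype ratios of the members at 21 dpi, in opposite directions. Without scaling Il16 had 0.999, smaller in size than Il15 at -1.74, Il1rn at -1.37, Il1rl2 at -1.23 and Il2rg at -1.22. At a pseudocount of 0.01, Il1f9 at -1.36 and Il1rn at -1.35 passed Il15 at -1.32. Il15, which sustains natural killer and memory T cells, had 77.3 (ApoE3) and 64.5 FPKM (ApoE4) at 7 dpi, and 34.04 and 116 at 21 dpi, genotype ratios of 0.25 at 7 dpi and -1.30 at 21 dpi. With time it was lower in ApoE3, -1.26, and had 0.29 in ApoE4, 0.84 without scaling. Its receptor Il15ra had genotype ratios of 0.13 and 0.10, so that Il15ra was at 3.77 times the FPKM of Il15 in ApoE3 at 21 dpi and at 1.41 to 1.53 times in the other groups. Il16, a ligand of CD4 that is released from a larger precursor and has a neuronal form, had 39.1 (ApoE3) and 49.5 FPKM (ApoE4) at 7 dpi, and 49.8 and 24.4 at 21 dpi, genotype ratios of -0.35 and 1.43. With time it had 0.25 in ApoE3 and was lower in ApoE4, -1.53. Tnfrsf25, the death receptor for the ligand TL1A, had 8.66 (ApoE3) and 8.21 FPKM (ApoE4) at 7 dpi, and 12.4 and 9.21 at 21 dpi, a ratio of 0.79 at 21 dpi and 0.39 without scaling, and Tnfsf13 was the remaining member higher in ApoE3, with 0.47 and, without scaling, 0.15.

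The Il16 promoter shown is the 1 of 3 in the table with a kappaB match (GGGANTTTC), which begins at -49 (GRCm38.p6, chr7:83655446-83655745 on the minus strand); capitals mark it.
Il16: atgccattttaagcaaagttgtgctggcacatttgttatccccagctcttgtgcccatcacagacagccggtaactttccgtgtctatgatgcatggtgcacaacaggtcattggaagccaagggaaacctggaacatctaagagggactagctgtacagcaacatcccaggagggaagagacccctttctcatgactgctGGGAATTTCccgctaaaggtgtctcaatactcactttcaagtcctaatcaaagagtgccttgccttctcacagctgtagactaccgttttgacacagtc
The kappaB letters occurred in 1.11% of all promoters and in 1 of the 55 promoters of members, 1.82%.

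Markers of tissues outside the cord differed between the genotypes at 21 dpi as well. Schwann cell markers, 3 of 4 with a row, summed to 94.4 FPKM in ApoE3 and 46.9 in ApoE4, with Egr2, the most abundant, at 73.04 and 46.1 and Cldn19 at 18.6 and 0.188. Sensory ganglion markers Avil and Scn10a stood at 39.1 and 20.1 in ApoE3 and at 1.20 and 0.153 in ApoE4, where Trpv1 was listed at 0. The sum of deposited FPKM of that list, 4 of 5 with a row, was 763 and 831, led by Calca. After scaling all 4 had ratios above 0, 3 of them past the fold toward ApoE3, and Calca had 0.21. Skeletal muscle markers, 4 of 5, summed to 30.6 in ApoE3 and 613 in ApoE4, with Tnnt3, the most abundant, at 22.5 and 515, and Myh4 was listed at 0 in ApoE3. Liver markers, 5 of 5 and led by Apoa2, summed to 10.3 and 107. Deposited FPKM of macrophage markers with a row, 3 of 7, summed to 266 and 519, and of microglia markers, 5 of 7, to 276 and 498. After scaling 2 of the 3 macrophage markers were past the fold toward ApoE4, with a list median of -0.56, and Gpnmb had -0.09. Of the 5 microglia markers 2 were past the fold toward ApoE4, with a list median of -0.27. The neutrophil markers S100a8 and S100a9 were higher in ApoE4, with ratios of -0.44 and -0.90, and Csf3r had -0.09. Fibroblast markers were higher in ApoE3 in 3 of 5 and endothelial markers in 1 of 4. Astrocyte markers were higher in ApoE4 in 1 of 5 and neuron markers in 1 of 4, as were the B cell and the natural killer cell marker with a row. Of the 2 T cell markers, 1 was past the fold in each direction. Over all genes 6.76% were higher in ApoE3 and 8.66% in ApoE4. With 1 sample per group there is no other sample in which to read the members without these markers, and their part in the genotype ratios at 21 dpi was not tested.

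Across the 2 times, which share no sample, Il1rn and Il2rg were higher in ApoE4 at both, 2 of 45 members against 0.91% of all genes, and 0 members were higher in ApoE3 at both, against 0.45%. Il1rn differed by -0.58 and -1.01 and Il2rg by -0.46 and -0.80. Neither direction turned without scaling. Of the other 7 members past the fold at 7 dpi, Il1r1, Il4i1 and Il12rb1 were listed at 21 dpi and none of the 3 reached the fold there. Without scaling Il4i1 and Il12rb1 did so toward ApoE4, each with -0.40, which for Il12rb1 is the other direction than at 7 dpi.

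**Figure D5:**
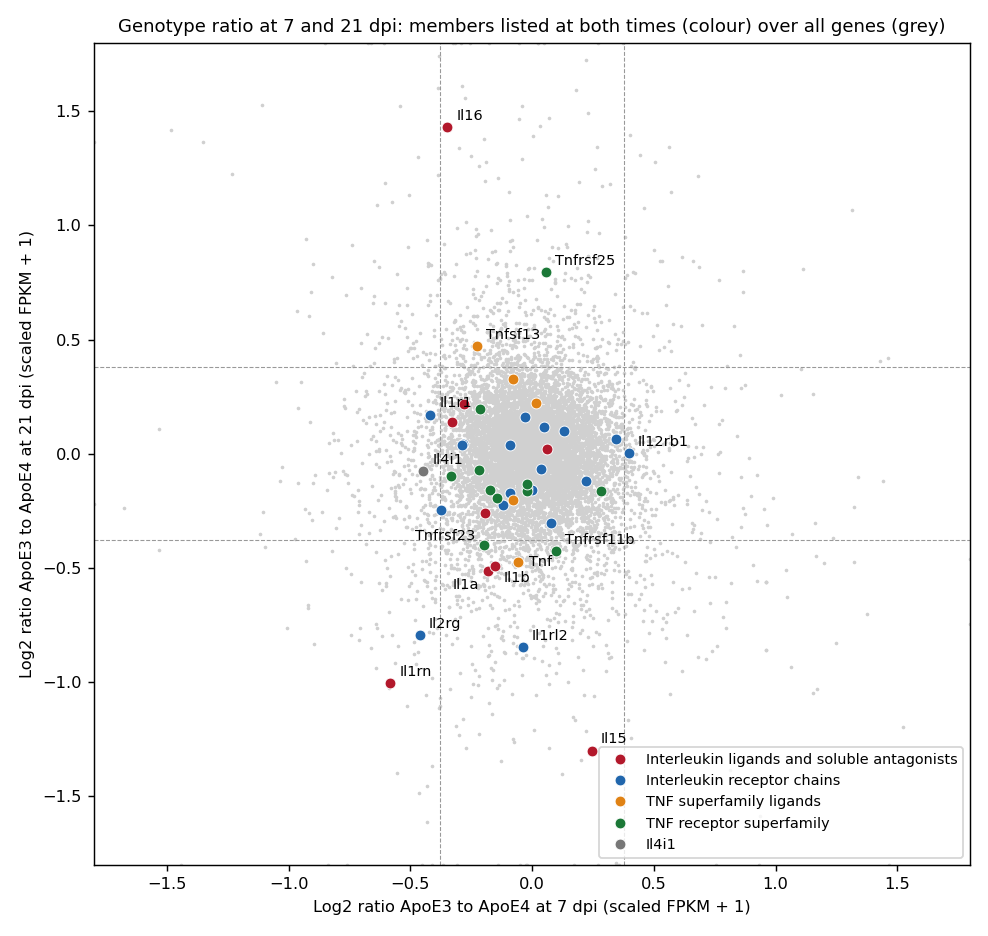
Log2 ratio of scaled FPKM + 1, ApoE3 to ApoE4, at 7 dpi (x axis) and 21 dpi (y axis) for the 45 members listed at both times, coloured by role, over all 10879 genes in grey; dashed lines mark a fold of 1.3, and grey points beyond the axes are drawn at the edge. Il1rn and Il2rg lie in the lower left corner, higher in ApoE4 at both times, and Il15 and Il16 lie far from 0 at 21 dpi on opposite sides.

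The machinery around these receptors was read from lists of other genes. Of 18 receptor adaptors and kinases with rows at both times, 11 were lower at 21 dpi and 0 higher in both genotypes, where the shares of all genes for this and the lists below are 21.5% and 19.6%, with medians of -0.55 in ApoE3 and -0.58 in ApoE4, the latter -0.10 without scaling. They included Myd88, the adaptor of IL-1 receptors, with 13.4 (ApoE3) and 15.3 FPKM (ApoE4) at 7 dpi, and 7.06 and 10.8 at 21 dpi, and Ripk3, the kinase of TNF-driven necroptosis, with 10.1 (ApoE3) and 11.8 FPKM (ApoE4) at 7 dpi, and 2.82 and 4.26 at 21 dpi and log2 ratios of -1.64 in ApoE3 and -1.75 in ApoE4. Jak1, the most abundant of the list, had 307 (ApoE3) and 294 FPKM (ApoE4) at 7 dpi, and 217 and 314 at 21 dpi. Its log2 ratios were -0.59 in ApoE3 and -0.46 in ApoE4. The count of 11 lower genes is after scaling, and without scaling Jak1 and Irak3 stood higher at 21 than at 7 dpi in ApoE4. Irak3 had 13.6 FPKM at 7 dpi and 14.2 at 21 dpi in ApoE4. At 7 dpi 2 of 22 listed genes, Irak2 and Irak4, were higher in ApoE4, against 5.26% of all genes, with ratios of -0.39 and -0.42.

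Genes that process or shed cytokines and their receptors were lower at 21 dpi in both genotypes in 7 of 8, with medians of -1.28 and -1.12, the latter -0.58 without scaling. Adam17, the sheddase that frees TNF and its receptors from the membrane, had 149.7 (ApoE3) and 171 FPKM (ApoE4) at 7 dpi, and 44.03 and 76.4 at 21 dpi, log2 ratios of -1.84 in ApoE3 and -1.71 in ApoE4. Pycard, the inflammasome adaptor, had 36.8 (ApoE3) and 47.6 FPKM (ApoE4) at 7 dpi, and 15.1 and 27.9 at 21 dpi, log2 ratios of -1.32 in ApoE3 and -1.29 in ApoE4, and was also higher in ApoE4 at 21 dpi, with a ratio of -0.41. Casp1, which matures IL-1 beta and IL-18, was near the floor, with 3.49 (ApoE3) and 3.69 FPKM (ApoE4) at 7 dpi, and 0.809 and 2.26 at 21 dpi. Rhbdf2, which carries Adam17 to the cell surface, had log2 ratios with time of -1.24 in ApoE3 and -2.39 in ApoE4. At 21 dpi it had 18.1 (ApoE3) and 14.0 FPKM (ApoE4), a genotype ratio of 0.76 that fell short of the fold without scaling.

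NF-kappaB subunits, inhibitors and feedback genes were lower in both genotypes in 8 of 18 and higher in 1, with medians of -0.45 in ApoE3 and -0.35 in ApoE4, the latter 0.20 without scaling. Tnfaip3, the feedback inhibitor A20, had 13.1 (ApoE3) and 19.1 FPKM (ApoE4) at 7 dpi, and 5.48 and 5.97 at 21 dpi, log2 ratios of -1.21 in ApoE3 and -2.01 in ApoE4, and was higher in ApoE4 at 7 dpi, with a ratio of -0.53. Rela had log2 ratios with time of -0.000 in ApoE3 and -0.24 in ApoE4, and Icam1, an endothelial target, of -1.26 in ApoE3 and -1.21 in ApoE4. STAT factors and their feedback inhibitors were lower in both in 4 of 9, with medians of -0.03 and -0.25, and 0.07 and 0.30 without scaling. Stat6, which acts below the IL-4 receptor, had 30.8 (ApoE3) and 32.9 FPKM (ApoE4) at 7 dpi, and 14.5 and 11.99 at 21 dpi, log2 ratios of -1.13 in ApoE3 and -1.90 in ApoE4, beside ratios of -1.08 in ApoE3 and -1.41 in ApoE4 for Il4ra. Stat2, listed at 7 dpi only, was higher in ApoE3, with a ratio of 0.47, and Socs3 and Bcl3 were higher in ApoE4, each with -0.40.

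Cytokine genes of the same receptor families under other names were lower at 21 dpi in both genotypes in 6 of 12, with medians of -0.60 and -0.93, the latter -0.41 without scaling. Csf2rb, the chain that pairs with Il3ra, had 23.2 (ApoE3) and 26.2 FPKM (ApoE4) at 7 dpi, and 3.57 and 7.02 at 21 dpi, log2 ratios of -2.50 in ApoE3 and -2.26 in ApoE4. At 7 dpi 7 of 17 were higher in ApoE4 and 0 in ApoE3, against 5.26% and 3.58% of all genes. Lif had 5.95 (ApoE3) and 10.2 FPKM (ApoE4) and a ratio of -0.71, and Clcf1, like Lif a ligand that signals through Il6st, had 9.86 (ApoE3) and 19.3 FPKM (ApoE4) and -0.92. At 21 dpi Clcf1 was past the fold toward ApoE3 after scaling, with 14.05 (ApoE3) and 12.2 FPKM (ApoE4) and a ratio of 0.60. Without scaling Clcf1 fell short of the fold at 21 dpi, and Lif was not listed then. TNF superfamily genes under other names had rows at both times for 5 of 14, of which 1 was lower and 1 higher in both genotypes, with medians of 0.23 and -0.27, the latter 0.17 without scaling. Relt had 139 (ApoE3) and 134 FPKM (ApoE4) at 7 dpi, and 250.1 and 341 at 21 dpi, and Fas, the death receptor, had 27.7 (ApoE3) and 28.2 FPKM (ApoE4) at 7 dpi, and 16.2 and 42.3 at 21 dpi, a genotype ratio at 21 dpi of -0.89. Ngfr, the low-affinity neurotrophin receptor, had 8.09 (ApoE3) and 1.91 FPKM (ApoE4) at 21 dpi, beside the Schwann cell markers given above.

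Between genotypes at 21 dpi, adaptors and kinases had 1 gene of 18 higher in ApoE3 and 2 in ApoE4, processing genes 1 and 2 of 8, NF-kappaB genes 0 and 1 of 18, STAT genes 2 and 0 of 9, other cytokine genes 2 and 4 of 12, and other TNF superfamily genes 2 and 1 of 6, against 6.76% and 8.66% of all genes. The medians were -0.01, -0.24, 0.05, 0.08, -0.15 and 0.02 in that order, and without scaling -0.44, -0.66, -0.36, -0.37, -0.60 and -0.36. At 7 dpi the processing list had 0 and 2 of 11, the NF-kappaB list 0 and 2 of 21, the STAT list 1 and 2 of 13 and the other TNF superfamily genes 0 and 0 of 7, against 3.58% and 5.26% of all genes.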

How the data were processed

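Total RNA of lesion segments from 4 groups of male mice, 1 sample each in the deposited records, was sequenced by the authors, who equalised read numbers before alignment. The study's methods report a lower alignment rate for 1 replicate, without naming its group. The submitters' processing notes name STAR 2.5.4b, Bowtie2 2.1.10, SAMtools 0.1.7 and Cuffdiff 1.3.0; the genome build is not given in the sources used here. The authors deposited FPKM + 1 per gene and group, from which 1 was subtracted here, and also fold changes and p-values of their own comparisons, which were not used. Values of 2 symbols on 2 rows per time point were summed. FPKM was scaled by the median ratio to the geometric mean over 10650 genes with at least 1 FPKM in all groups, and log2 ratios used a pseudocount of 1. Counts at a fold of 1.3 and medians stand beside the same over all genes; with 1 value per group no test was run, and read counts per gene were not used here. In each comparison the 10 members with the largest log2 ratio among those past the fold with FPKM of at least 1 in a group, and the 10 with the highest mean FPKM, are given in full; others are named as examples. Of 6 pathway and 17 marker lists, up to 4 genes each are named; 3 genes of the planned lists are not reported here and were left out of list counts and sums. Members and lists were chosen with earlier results of these data known. Alternatives were no scaling, subtraction of the median ratio in place of scaling, pseudocounts of 0.1 and 0.01, a mean FPKM of at least 1, and folds of 1.5 and 2. Promoters and symbols were taken from RefSeq tables, with 58 of 58 members matched by symbol. Scripts used Python 3.11.15, numpy 2.4.6 and pandas 2.3.3, with plots in matplotlib 3.10.9, and were checked on simulated data.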

Additional observations from a re-analysis of the deposited data

Results flagged for a closer look

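The genotype ratio of Il15 and of Il16 had opposite signs at the 2 times. For Il15 the log2 ratio of ApoE3 to ApoE4 was 0.25 at 7 dpi and -1.30 at 21 dpi, a difference of -1.54. For Il16 it was -0.35 and 1.43, a difference of 1.78. Each group has 1 value, so neither difference was tested, and each was singled out because the 2 ratios point opposite ways and differ by at least 1 on the log2 scale. Skeletal muscle markers, 4 of 5 with a row, summed at 21 dpi to 30.6 (ApoE3) and 613 FPKM (ApoE4), and Schwann cell markers, 3 of 4, at 94.4 and 46.9; their part in these ratios was not tested.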

How the results depend on the processing

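Of the 107 log2 ratios of members named by rule, those past the fold kept their direction under the alternatives, and of the other members Tnfrsf21 with time in ApoE4 went from -0.51 to 0.03 without scaling. Il1f9 had no value under the mean FPKM of at least 1. Without scaling, 32 members were lower in ApoE3 at 21 dpi, against 58.9% of all genes, with a median of -0.54, and with time in ApoE4 12 were higher, against 59.02%, with a median of -0.063; the scaling factor of the ApoE4 sample at 21 dpi sets this difference. With the median ratio subtracted in place of scaling, and with a pseudocount of 0.1 or 0.01, 5 members were higher in ApoE3 at 21 dpi in place of 3, against 7.46%, 7.89% and 8.07% of all genes in that order. With the median ratio subtracted, 7 were lower there in place of 10, against 8.06%, Il1b and Tnf being at -0.37 each and Tnfrsf11b at -0.28, and 6 at 7 dpi in place of 7, against 4.82%, with Tnfrsf26 at -0.37. The median with time in ApoE3 was -0.83 at a pseudocount of 0.1 and -0.87 at 0.01, and in ApoE4 -0.66 at 0.01. At a fold of 1.5, 1 member was higher and 1 lower in ApoE3 at 7 dpi, against 1.22% and 1.68%, 5 were lower in ApoE3 at 21 dpi, against 3.95%, and 3 were higher with time in ApoE3, against 16.3%. At a fold of 2, 0 members were higher and 0 lower in ApoE3 at 7 dpi, against 0.340% and 0.269%, 1 was higher and 2 lower at 21 dpi, against 1.15% and 1.26%, and with time 0 were higher in ApoE3 and 1 in ApoE4, against 4.49% and 5.09%. Apart from what the construction of an alternative sets, the cause was not tested. The remaining counts stayed within 1.5 times. Of 107 log2 ratios of named members, 89 kept their side of the fold without scaling, 13 came to pass it and 5 no longer did. With 1 value per group and no read count per gene in use, neither the spread between mice nor the precision of low genes can be given.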
